A study of Mus musculus with 12 samples.

Results

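The genes described here were 10 members of the matrix metalloproteinase (Mmp) system: the inhibitors Timp1, Timp2 and Timp3, and the proteases Mmp2, Mmp3, Mmp7, Mmp9, Mmp12, Mmp14 and Mmp19. They were chosen by name, and all 10 were found among the 54532 genes listed. Kidney RNA came from C57BL/6 mice in 4 groups of 3. A β-catenin knockout group and a wild-type group had unilateral ureteral obstruction (UUO), in which the left ureter is tied permanently. A group labelled CD44 knockout and a further wild-type group had unilateral ischemia-reperfusion injury (UIRI), in which the left renal pedicle is clipped and then released and, per the study's methods, the right kidney is removed before the end. All 12 kidneys were injured, and no sham-operated kidney was analysed here. The β-catenin knockout, per the study's methods, joined floxed β-catenin alleles with Ksp-Cre, driven by the Cadherin-16 promoter of tubular cells. The study describes loss of β-catenin in the distal nephron and collecting duct, and in the proximal tubule to some extent in its discussion but over most of that segment in its supplementary staining. The wild-type mice did not carry Cre. How the CD44 knockout was made is not given in the sources used here, nor is the day of harvest after UUO. The study's methods describe its purchased C57BL/6 mice as young adult males.

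Mmps are zinc-dependent endopeptidases that are made as inactive proenzymes and cut collagens, other matrix proteins and many cell surface proteins. Timps are small secreted proteins that sit in the catalytic cleft of an active Mmp and block it, and Timp3 stays bound to the matrix and also inhibits Adam17. In injured and fibrotic kidneys, Timp1 is known as an inducible product of interstitial, inflammatory and tubular cells, and Mmp7 as a tubular product whose gene responds to β-catenin.

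Expression was given as FPKM, in which a gene's reads are divided by its length and by the depth of the library. Reads assigned to genes were 15940405 to 20737443 per library. Knockout and wild-type libraries were compared within each table by limma on log2(FPKM + 1), among 16166 genes (UUO) and 16113 genes (UIRI) with a mean of at least 0.5 FPKM, and a gene was called at a two-sided adjusted p under 0.05 (Benjamini-Hochberg). All 10 members passed this filter in both tables. A log2 fold change on this scale understates the change of a gene with a low FPKM. For 1 gene, 3 mice against 3 allow an exact permutation test no p below 0.1, and p-values measure the spread between these mice. The targeted genes were checked first. Ctnnb1, which encodes β-catenin, was at 84.7, 71.4 and 71.7 FPKM in β-catenin knockout mice, against 91.2, 86.7 and 98.5 FPKM in wild-type mice after UUO. These groups did not overlap and Ctnnb1 did not pass the test (log2 fold change −0.28, limma adjusted p = 0.189). Cd44 was at 19.0, 11.97 and 13.9 FPKM in the libraries labelled CD44 knockout, against 19.9, 16.3 and 17.8 FPKM in wild-type mice after UIRI. The Cd44 groups overlapped and Cd44 did not pass the test (log2 fold change −0.27, limma adjusted p = 0.339), and its summed exons did not show the labelled knockout. Neither targeted gene was thus called, and every direction given below rests on the labels.

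Some libraries stood apart from the others of their groups in marker sums. In β-catenin knockout replicate 1 the fibroblast and myofibroblast sum was 207 FPKM, against 68.3 and 95.7 FPKM in replicates 2 and 3. Its collecting duct sum was 594 FPKM, against 260 and 284 FPKM in those replicates. Wild-type UUO replicate 3 had a sum of 570.1 FPKM over 11 neutrophil markers, against 15.1 to 63.2 FPKM in the other 11 libraries. The library labelled CD44 knockout replicate 2 had a proximal tubule marker sum of 5517 FPKM, against 16023 and 13302 FPKM in replicates 1 and 3, and lay nearer to wild-type mice after UIRI, at 3388 to 4588 FPKM. Member fold changes that rest on wild-type UUO replicate 3 or CD44 knockout replicate 2 are given with and without that library. The marker lists, related lists, shares of the Timp sum and correlations are given over all libraries only.

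The 250 bases before the start of a gene hold its proximal promoter. RefSeq windows (GRCm38.p6) were found for 7 of the 10 members, 9 windows in all, and were searched for the letters TGANTCA of AP-1, the factor of Fos and Jun, and CTTTGA of TCF/LEF, the partners of β-catenin, on both strands. AP-1 letters were in 3 of the 9 windows, against 6.75% of the 32851 windows of all genes, and TCF/LEF letters in 1 window, against 13.8% of all. AP-1 letters started 46 bases before the start in Mmp3, 63 bases before the first start of Mmp7 and 44 bases before the second start of Mmp12, and the TCF/LEF letters were 246 bases before the second start of Mmp7. A match is a description of letters only, and the factors were not measured at these sites. Mmp3 and the first start of Mmp7 are shown as examples of windows with AP-1 letters, and Timp1 because its fold changes were the largest among the inhibitors. Capitals mark TGANTCA. Mmp3 lies at chr9:7445572-7445821 on the plus strand. Mmp7 lies at chr9:7691840-7692089 on the plus strand. Timp1 lies at chrX:20869916-20870165 on the plus strand and holds neither set of letters.
Mmp3: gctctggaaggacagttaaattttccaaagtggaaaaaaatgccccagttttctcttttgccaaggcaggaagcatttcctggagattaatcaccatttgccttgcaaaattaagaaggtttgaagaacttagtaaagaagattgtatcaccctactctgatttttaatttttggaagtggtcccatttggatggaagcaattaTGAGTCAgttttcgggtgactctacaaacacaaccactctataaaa
Mmp7: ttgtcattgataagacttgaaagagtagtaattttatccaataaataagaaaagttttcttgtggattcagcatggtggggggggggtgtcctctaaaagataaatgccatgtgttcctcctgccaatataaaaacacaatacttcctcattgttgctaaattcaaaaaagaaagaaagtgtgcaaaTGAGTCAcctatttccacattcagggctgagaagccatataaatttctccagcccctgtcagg
Timp1: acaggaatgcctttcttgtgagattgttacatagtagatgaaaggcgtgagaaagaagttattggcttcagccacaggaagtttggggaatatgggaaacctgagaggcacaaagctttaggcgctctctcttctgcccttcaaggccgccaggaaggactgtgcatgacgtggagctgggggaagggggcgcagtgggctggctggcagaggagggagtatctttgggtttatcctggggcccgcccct

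After UUO, 3 of the 10 members were lower in β-catenin knockout mice by the test, Timp1, Mmp3 and Mmp19, and 0 were higher. Of all genes tested, 4.36% were called lower and 6.21% higher. After UIRI, 1 member, Timp1, was lower in the libraries labelled CD44 knockout and 1, Timp3, was higher, where 2.19% of all genes were called lower and 4.02% higher. With FPKM rescaled to equal library totals (TPM) the balance of all called genes turned, to 578 higher and 1178 lower in place of 1004 and 705 after UUO, and to 220 and 473 in place of 648 and 353 after UIRI. At an unadjusted p under 0.05 the members were 7 of 10 after UUO, all lower, where 12.9% of all genes were lower at that p. Mmp12 was among these 7 and passed the filter of 0.5 FPKM only through the wild-type mice. After UIRI the members at that p were 5 of 10, 4 of them lower and 1 higher, where 11.2% of all genes were lower and 15.8% higher. For the 10 members the median log2 fold change was −0.98 after UUO and −0.62 after UIRI, and that of all genes tested was 0.01 and 0.00. In 6 members every β-catenin knockout mouse lay below every wild-type mouse after UUO (Timp1, Timp2, Mmp3, Mmp9, Mmp14 and Mmp19), as did 15.9% of all genes, and in no member did every knockout mouse lie above, as 19.6% of all genes did. After UIRI the libraries labelled CD44 knockout all lay below in 3 members (Timp1, Mmp2 and Mmp12), as in 14.5% of all genes, and all above in 1 (Timp3), as in 19.1% of all genes.

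**Figure D1:**
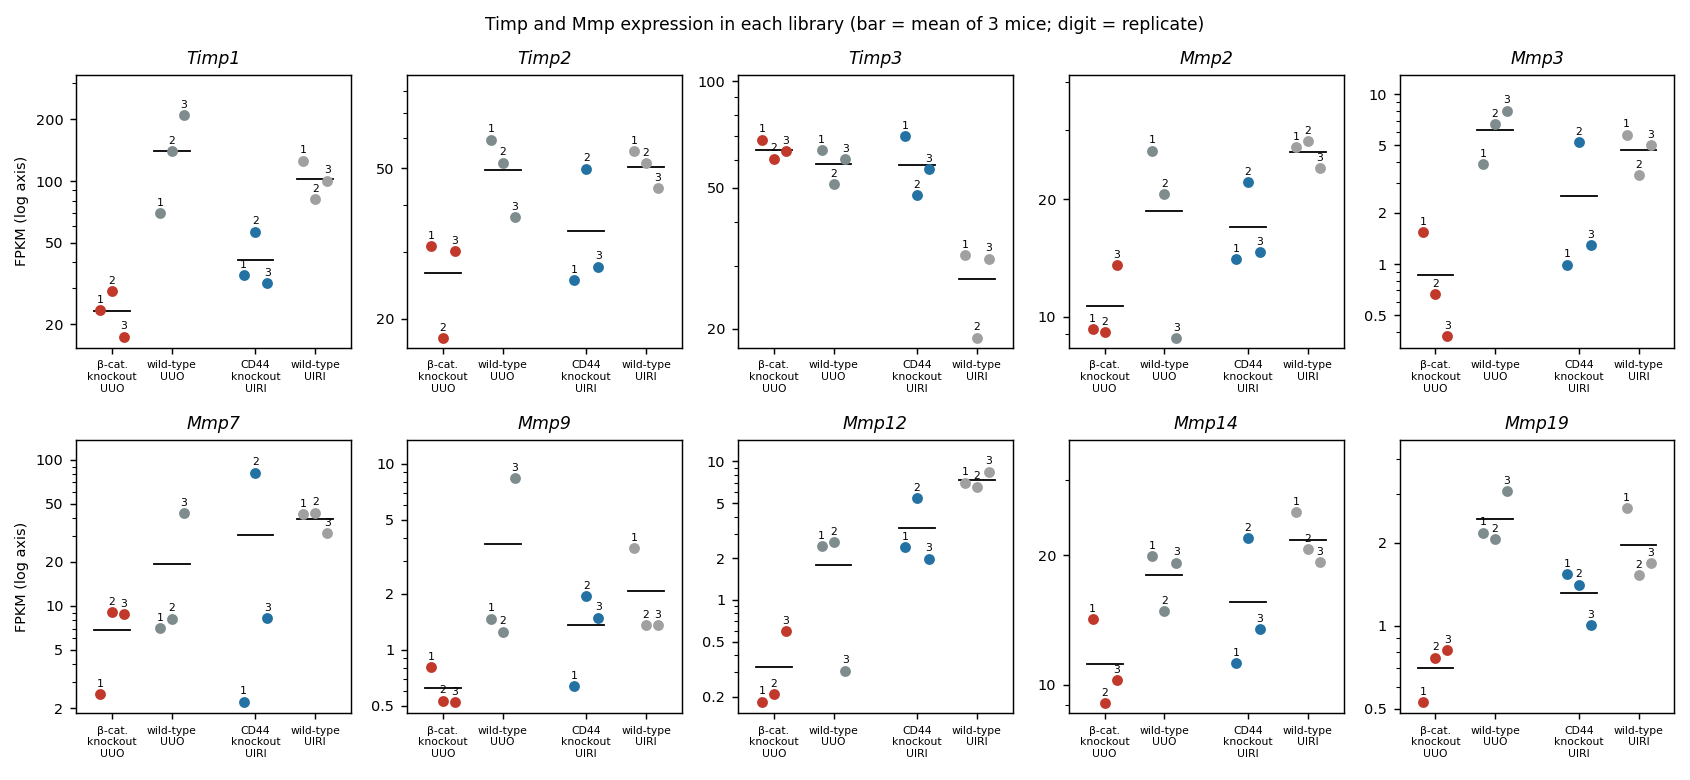
FPKM of the 10 genes in each of the 12 libraries, 1 panel per gene on a log axis. Points are mice with their replicate number and bars are the means of 3 mice. Timp1 is lower in all 6 knockout libraries than in the wild-type libraries of the same table. Mmp7 and Mmp9 are highest among the UUO libraries in wild-type replicate 3, at 43.0 and 8.36 FPKM.

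Timp1, the inducible inhibitor of most secreted Mmps, had the largest log2 fold change among the members after UUO on this scale. It lies on chromosome X from 20870166 to 20874735 of GRCm38 (ENSMUSG00000001131). It was at 23.4, 29.0 and 17.4 FPKM in β-catenin knockout mice, against 69.5, 140.1 and 209.1 FPKM in wild-type mice after UUO. The highest knockout mouse was below the lowest wild-type mouse, and the wild-type mice were widely spread. Its log2 fold change was −2.43 (SE 0.39, limma adjusted p = 0.0155), and the group means were 23.2 ± 5.83 and 139.5 ± 69.8 FPKM (SD, n = 3 each). Without wild-type UUO replicate 2 the fold change was −2.36 and the limma adjusted p was 0.0663, and with any other library left out it stayed under 0.05.

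After UIRI, Timp1 was at 34.6, 56.6 and 31.7 FPKM in the libraries labelled CD44 knockout, against 126.0, 81.4 and 100.6 FPKM in wild-type mice. The groups did not overlap, and replicate 2 was the highest of the labelled knockouts. This gave a log2 fold change of −1.33 (SE 0.25, limma adjusted p = 0.0362). Without CD44 knockout replicate 2 it was −1.58 (limma adjusted p = 0.00665), and with any of the other 5 libraries left out the adjusted p was 0.0808 to 0.132, past the threshold in none of them.

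Timp3, the inhibitor that stays in the matrix, went the other way after UIRI. It lies on chromosome 10 from 86300372 to 86349506 (ENSMUSG00000020044), within the gene Syn3 on the opposite strand. After UIRI it was at 69.8, 47.6 and 56.4 FPKM in the libraries labelled CD44 knockout, against 32.3, 18.9 and 31.5 FPKM in wild-type mice. Every labelled knockout was above every wild-type mouse. Timp3 rose by 1.07 on the log2 scale (SE 0.23, limma adjusted p = 0.0490), and the adjusted p was 0.0658 with FPKM rescaled to TPM and 0.0565 in limma without a trend. Without CD44 knockout replicate 2 it was 1.20 (limma adjusted p = 0.0290), and with any of the other 5 libraries left out the adjusted p was 0.0901 to 0.154.

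After UUO, Timp3 was at 68.4, 60.4 and 63.4 FPKM in β-catenin knockout mice, against 63.9, 51.3 and 60.2 FPKM in wild-type mice. These groups overlapped. Timp3 had a log2 fold change of 0.13 (95% interval −0.17 to 0.43, limma adjusted p = 0.520), 0.04 to 0.20 with single libraries left out, and it was −0.08 with FPKM rescaled to TPM, a rescaling that moved the median of all genes to −0.19 after UUO and to −0.12 after UIRI. Of the exon bases of Timp3, 21.3% are also exon of Syn3, which was at 0.175 to 0.368 FPKM, and whether reads were counted by strand is not given in the sources used here.

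Timp2 lies on chromosome 11 from 118301069 to 118355740 (ENSMUSG00000017466). This inhibitor, which also takes part with Mmp14 in activating the proenzyme of Mmp2, was at 31.1, 17.8 and 30.2 FPKM in β-catenin knockout mice, against 59.6, 51.8 and 37.2 FPKM in wild-type mice after UUO. The groups did not overlap, but the difference did not pass the test (log2 fold change −0.90, 95% interval −1.50 to −0.30, limma adjusted p = 0.0653). After UIRI it was at 25.2, 49.9 and 27.4 FPKM in the libraries labelled CD44 knockout, against 55.6, 51.5 and 44.3 FPKM in wild-type mice. Replicate 2 of the labelled knockouts lay among the wild-type mice (log2 fold change −0.61, limma adjusted p = 0.180). It was −0.91 without that library (limma adjusted p = 0.00886) and −0.43 without CD44 knockout replicate 1 (limma adjusted p = 0.374).

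The make-up of the inhibitors differed between the groups. Timp1 made up 19.0%, 27.1% and 15.7% of the summed FPKM of Timp1, Timp2 and Timp3 in β-catenin knockout mice, against 36.0%, 57.6% and 68.2% in wild-type mice after UUO. It made up 26.7%, 36.8% and 27.4% in the libraries labelled CD44 knockout, against 58.9%, 53.6% and 57.0% in wild-type mice after UIRI. In neither comparison did the groups overlap. Timp3 was the most abundant of the Timps in all 3 β-catenin knockout mice, at 55.7% to 57.1% of the sum, and made up 19.6% to 33.1% in wild-type mice after UUO. It made up 53.8%, 30.9% and 48.8% in the libraries labelled CD44 knockout, and 12.4% to 17.9% in wild-type mice after UIRI. The sum itself was 107 to 123 FPKM in β-catenin knockout mice and 193 to 307 FPKM in wild-type mice after UUO. It was 130, 154 and 116 FPKM in the libraries labelled CD44 knockout and 214, 152 and 176 FPKM in wild-type mice after UIRI, where the groups overlapped. These shares were not tested apart from the genes they are made of.

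**Figure D2:**
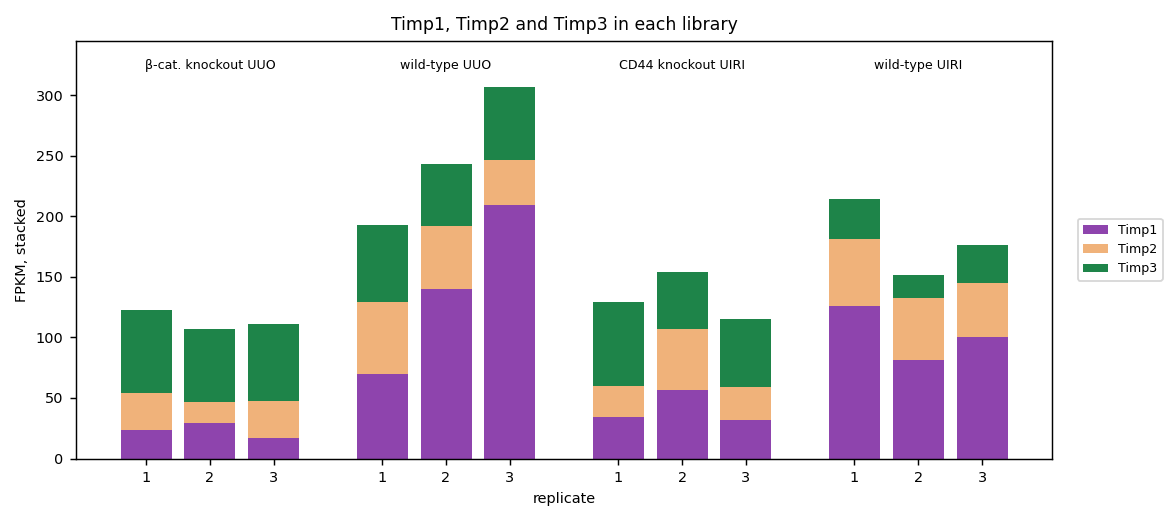
Stacked FPKM of Timp1, Timp2 and Timp3 in each library, by group and replicate. Timp1 is the largest part in all 3 wild-type mice after UIRI and all 3 after UUO, and Timp3 is the largest part in all 3 β-catenin knockout mice.

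Mmp3, stromelysin-1, cuts proteoglycans and laminin and activates other proenzymes. It lies on chromosome 9 from 7445822 to 7455975 (ENSMUSG00000043613). It was at 1.55, 0.663 and 0.375 FPKM in β-catenin knockout mice, against 3.89, 6.70 and 8.01 FPKM in wild-type mice after UUO. No knockout mouse reached the lowest wild-type mouse. On the log2 scale Mmp3 fell by 1.95 (SE 0.29, limma adjusted p = 0.0142), and the ratio of the group means, which carries no pseudocount, was 0.139. Without wild-type UUO replicate 2 the limma adjusted p was 0.0634, and with any other library left out it was under 0.05.

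After UIRI, Mmp3 was at 0.994, 5.22 and 1.296 FPKM in the libraries labelled CD44 knockout, against 5.79, 3.35 and 5.02 FPKM in wild-type mice. Replicates 1 and 3 were below all wild-type mice and replicate 2 was among them. Its log2 fold change was −0.88 (limma adjusted p = 0.240), and −1.39 without CD44 knockout replicate 2 (limma adjusted p = 0.0121) but −0.57 without replicate 1 (limma adjusted p = 0.479).

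Mmp19 is a widely expressed secreted protease that cuts basement membrane proteins. It lies on chromosome 10 from 128790910 to 128800824 (ENSMUSG00000025355). It was at 0.526, 0.765 and 0.812 FPKM in β-catenin knockout mice, against 2.17, 2.06 and 3.08 FPKM in wild-type mice after UUO. The groups were far apart for their spread (log2 fold change −1.01, SE 0.16, limma adjusted p = 0.0154, and 0.0530 without wild-type UUO replicate 2). Of its exon bases, 22.3% are also exon of Tmem198b on the opposite strand, which was at 2.83 to 3.07 FPKM in β-catenin knockout mice and 2.89 to 3.06 FPKM in wild-type mice after UUO. After UIRI, Mmp19 was at 1.54, 1.41 and 1.01 FPKM in the libraries labelled CD44 knockout, against 2.66, 1.52 and 1.69 FPKM in wild-type mice. These groups overlapped by 1 pair of mice (log2 fold change −0.34, limma adjusted p = 0.262), and the fold change was −0.18 without wild-type UIRI replicate 1.

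The gelatinases Mmp2 and Mmp9 cut denatured collagen and type IV collagen of basement membranes. Mmp2 lies on chromosome 8 from 92827291 to 92853420 (ENSMUSG00000031740) and Mmp9 on chromosome 2 from 164940780 to 164955850 (ENSMUSG00000017737). Mmp2 was at 9.29, 9.12 and 13.6 FPKM in β-catenin knockout mice, against 26.6, 20.6 and 8.82 FPKM in wild-type mice after UUO. Wild-type replicate 3 was the lowest of the 6 libraries. The Mmp2 log2 fold change was −0.65 (95% interval −1.52 to 0.22, limma adjusted p = 0.283), and −1.09 without wild-type UUO replicate 3 (limma adjusted p = 0.0367) but −0.34 without wild-type UUO replicate 1 (limma adjusted p = 0.581). After UIRI, Mmp2 was at 14.0, 22.1 and 14.6 FPKM in the libraries labelled CD44 knockout, against 27.2, 28.1 and 24.0 FPKM in wild-type mice. All labelled knockouts were below all wild-type mice, and the difference did not pass the test (log2 fold change −0.64, 95% interval −1.05 to −0.22, limma adjusted p = 0.0744). Without CD44 knockout replicate 2 it was −0.83 (limma adjusted p = 0.00677).

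Mmp9, which neutrophils store in granules, was at 0.805, 0.533 and 0.525 FPKM in β-catenin knockout mice, against 1.47, 1.25 and 8.36 FPKM in wild-type mice after UUO. The groups did not overlap, and wild-type replicate 3 was far above the other 5 libraries. The Mmp9 log2 fold change was −1.21 (limma adjusted p = 0.164), and −0.55 without wild-type UUO replicate 3 (limma adjusted p = 0.112). In that library Mmp8, the neutrophil collagenase, was at 8.03 FPKM, against at most 0.743 FPKM in every other library. The part of neutrophil RNA in the Mmp9 values was not tested. After UIRI, Mmp9 was at 0.636, 1.94 and 1.49 FPKM in the libraries labelled CD44 knockout, against 3.52, 1.35 and 1.36 FPKM in wild-type mice, and the groups overlapped (log2 fold change −0.35, limma adjusted p = 0.515). It was −0.04 without wild-type UIRI replicate 1, −0.11 without CD44 knockout replicate 1 and −0.53 without CD44 knockout replicate 2.

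Mmp7, matrilysin, lies on chromosome 9 from 7692090 to 7699585 (ENSMUSG00000018623) and had the widest spread of the members. It was at 2.50, 9.12 and 8.80 FPKM in β-catenin knockout mice, against 7.04, 8.20 and 43.0 FPKM in wild-type mice after UUO. A pair of knockout mice lay above a pair of wild-type mice (log2 fold change −1.08, 95% interval −2.72 to 0.57, limma adjusted p = 0.342). The log2 fold change was −0.29 without wild-type UUO replicate 3 and −0.57 without β-catenin knockout replicate 1, and up to −1.52 with another library left out. After UIRI it was at 2.22, 81.7 and 8.22 FPKM in the libraries labelled CD44 knockout, against 42.6, 43.6 and 31.4 FPKM in wild-type mice. Replicate 2 was the highest of all 12 libraries, and replicates 1 and 3 were below every wild-type mouse after UIRI. The Mmp7 log2 fold change was −1.56 (SE 1.07, limma adjusted p = 0.390), and −2.87 without CD44 knockout replicate 2 (limma adjusted p = 0.0124) but −0.53 without replicate 1 (limma adjusted p = 0.756).

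Mmp12, macrophage elastase, cuts elastin. It lies on chromosome 9 from 7344381 to 7369499 (ENSMUSG00000049723). It was at 0.185, 0.208 and 0.599 FPKM in β-catenin knockout mice, against 2.46, 2.61 and 0.309 FPKM in wild-type mice after UUO. Wild-type replicate 3 lay among the knockout mice. The knockout mean after UUO, 0.331 FPKM, was below the filter of 0.5 FPKM, which Mmp12 passed through the wild-type mice. The Mmp12 log2 fold change was −0.95 (limma adjusted p = 0.157), and −1.42 without that library (limma adjusted p = 0.0215). After UIRI it was at 2.42, 5.44 and 1.99 FPKM in the libraries labelled CD44 knockout, against 7.04, 6.59 and 8.46 FPKM in wild-type mice. These groups did not overlap, and the difference did not pass the test (log2 fold change −1.04, 95% interval −1.71 to −0.38, limma adjusted p = 0.0718). Without CD44 knockout replicate 2 it was −1.38 (limma adjusted p = 0.00427).

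Mmp14 lies on chromosome 14 from 54431612 to 54445364 (ENSMUSG00000000957). This membrane-anchored protease, which activates the proenzyme of Mmp2, was at 14.2, 9.06 and 10.3 FPKM in β-catenin knockout mice, against 19.9, 14.8 and 19.2 FPKM in wild-type mice after UUO. The groups were separated by a narrow gap (log2 fold change −0.65, 95% interval −1.09 to −0.21, limma adjusted p = 0.0661). After UIRI it was at 11.2, 22.0 and 13.5 FPKM in the libraries labelled CD44 knockout, against 25.2, 20.7 and 19.3 FPKM in wild-type mice. Replicate 2 of the labelled knockouts again lay among the wild-type mice (log2 fold change −0.50, limma adjusted p = 0.226). It was −0.76 without that library (limma adjusted p = 0.0221) and −0.31 without CD44 knockout replicate 1 (limma adjusted p = 0.452).

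**Figure D3:**
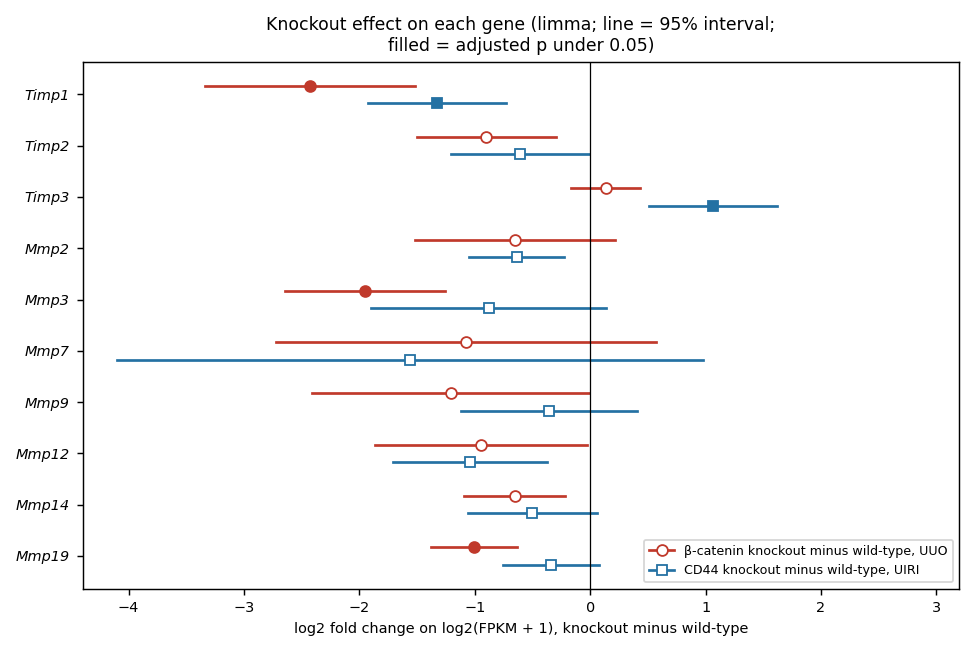
Log2 fold change of each gene on log2(FPKM + 1), knockout minus wild-type, after UUO (circles) and after UIRI (squares). Lines are 95% intervals and filled symbols passed limma's test at an adjusted p under 0.05: Timp1, Mmp3 and Mmp19 after UUO, Timp1 and Timp3 after UIRI. The interval of Mmp7 after UIRI is the widest, from −4.10 to 0.98.

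Single libraries weighed on the counts in both comparisons. Without wild-type UUO replicate 2 limma called 0 members after UUO (6 at an unadjusted p under 0.05, as were 23.5% of all genes). After UIRI it called 0 when any 1 library other than CD44 knockout replicate 2 was left out (4 at an unadjusted p under 0.05 each time, as were 19.0% to 23.2% of all genes). Without wild-type UUO replicate 3, 5 members were called lower after UUO (Timp1, Mmp2, Mmp3, Mmp12 and Mmp19), where 3.28% of all genes were. Of these, Mmp12 passed the filter of 0.5 FPKM only through the wild-type mice. Without CD44 knockout replicate 2, 7 members were called lower after UIRI (Timp1, Timp2, Mmp2, Mmp3, Mmp7, Mmp12 and Mmp14), where 4.73% of all genes were, and Timp3 was called higher, where 8.79% of all genes were. That library carries the CD44 knockout label as do replicates 1 and 3, so the count over all 6 libraries stands as the result. Without a filter on low values, which raised the genes tested to 29604 after UUO and 29532 after UIRI, 0 members were called in either comparison (5 after UUO and 4 after UIRI at an unadjusted p under 0.05, as were 19.1% and 17.3% of all genes), and in limma the adjusted p was 0.0532 for Timp1, 0.0503 for Mmp3 and 0.0540 for Mmp19 after UUO and 0.0849 for Timp1 and 0.105 for Timp3 after UIRI.

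Whether the effects of the knockouts differed was asked in a limma fit over the 12 libraries, as the effect of the β-catenin knockout after UUO minus that of the CD44 knockout label after UIRI. Of 16193 genes 0.00618% were called, and 0 members were, 2 of them being under an unadjusted p of 0.05, as were 13.6% of all genes. The difference was −0.93 for Timp3 (95% interval −1.55 to −0.32, limma adjusted p = 0.218), −0.67 for Mmp19 (−1.19 to −0.14, adjusted p = 0.273), −1.10 for Timp1 (−2.23 to 0.04, adjusted p = 0.380) and −1.07 for Mmp3 (−2.34 to 0.20, adjusted p = 0.439). The intervals of Timp3 and Mmp19 leave out 0 before adjustment and those of Timp1 and Mmp3 include it. Injury, knockout and its own wild-type mice change together between the comparisons and cannot be told apart.

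The order of the members by level, per length, differed between the groups. In β-catenin knockout mice Timp3 was highest, at 64.0 ± 4.01 FPKM (SD, n = 3), above Timp2 at 26.4 ± 7.44 FPKM and Timp1 at 23.2 ± 5.83 FPKM, which overlapped each other. In wild-type mice after UUO Timp1 was highest, at 139.5 ± 69.8 FPKM, above Timp3 at 58.5 ± 6.50 FPKM and Timp2 at 49.5 ± 11.4 FPKM, which overlapped. In the libraries labelled CD44 knockout Timp3, at 57.9 ± 11.2 FPKM, Timp1, at 41.0 ± 13.6 FPKM, and Timp2, at 34.2 ± 13.7 FPKM, each overlapped the next. In wild-type mice after UIRI Timp1, at 103 ± 22.4 FPKM, stood above Timp2, at 50.5 ± 5.76 FPKM, with no overlap, and Mmp7, at 39.2 ± 6.77 FPKM, overlapped Timp3, at 27.6 ± 7.53 FPKM. By group mean, Mmp2, Mmp7 and Mmp14 were the highest of the Mmps in all 4 groups. The Mmp7 mean of the libraries labelled CD44 knockout, 30.7 ± 44.3 FPKM, rests on replicate 2 at 81.7 FPKM. In replicate 1 Mmp7, at 2.22 FPKM, was below Mmp12, at 2.42 FPKM. Mmp3, Mmp9, Mmp12 and Mmp19 were at 8.46 FPKM or less in every library. The tables were scaled apart, and joint scaling of the 12 libraries moved the UIRI table against the UUO table by 1.97%. This checks the depth factor only. Other differences between the tables, which go with the injury, were not tested, so levels across the tables are a description. Mmp12 was at 1.99 FPKM or more in every UIRI library, and at 2.61 FPKM or less in every UUO library.

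Mmp12, Mmp3 and Mmp7 lie on chromosome 9 among 10 Mmp genes in 427 kilobases. The neighbours were low or listed at 0. Mmp13, a collagenase, was at 0.217 to 2.75 FPKM, Mmp8 at 0 to 8.03 FPKM, Mmp10 at 0 to 0.620 FPKM, Mmp27 at 0.183 to 0.966 FPKM and Mmp20 at 0.0154 to 0.266 FPKM, and Mmp1a and Mmp1b were listed at 0 in all 12 libraries. Within that stretch Mmp12 was higher in wild-type mice after UIRI than in any UUO library while Mmp3 was not, so that the neighbours did not share 1 pattern across the groups.

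Markers of some of the cells a kidney holds also differed between the groups, and a link to the members was not tested. Marker calls come from the fit over all libraries of a comparison and were not recomputed with libraries left out. After UIRI the calls over all genes fell from 1001 to between 1 and 10 without any single library other than CD44 knockout replicate 2. In bulk RNA, fewer cells of a type and less RNA per cell cannot be told apart. Of 15 macrophage and monocyte markers 12 were called lower in β-catenin knockout mice, and their summed level was 635 to 733 FPKM, against 1212 to 1501 FPKM in wild-type mice after UUO. Every knockout mouse lay below every wild-type mouse in 12 of the 15 and above in 1. After UIRI 8 of 15 were called lower, with sums of 857, 1451 and 837 FPKM in the libraries labelled CD44 knockout, against 2158 to 2239 FPKM in wild-type mice. Fibroblast and myofibroblast markers were called lower in 4 of 10 tested after UUO, with sums of 207, 68.3 and 95.7 FPKM in β-catenin knockout mice, against 202 to 245 FPKM in wild-type mice, and in 2 of 10 after UIRI, with sums of 118 to 274 FPKM in the libraries labelled CD44 knockout, against 227 to 383 FPKM in wild-type mice. Proximal tubule markers were called higher in 9 of 12 after UUO, with sums of 5944 to 9710 FPKM in β-catenin knockout mice, against 3413 to 6484 FPKM in wild-type mice, and in 5 of 12 after UIRI. Of 6 neutrophil markers tested after UUO and 5 after UIRI, 0 were called (1 and 4 at an unadjusted p under 0.05 in limma). Of T cell and natural killer cell markers 5 of 9 tested were called lower after UIRI and 0 of 10 after UUO, where 4 were at an unadjusted p under 0.05. Their sum after UIRI was 8.88 to 16.4 FPKM in the libraries labelled CD44 knockout, against 29.5 to 52.9 FPKM in wild-type mice.

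Injured tubule markers summed to 611 to 853 FPKM in β-catenin knockout mice, against 929 to 1634 FPKM in wild-type mice after UUO, with no overlap. Of the 6, 1 was called lower, Havcr1, the kidney injury molecule (log2 fold change −1.03, limma adjusted p = 0.0315). The median log2 fold change of the 6 was −0.06. Every knockout mouse lay below every wild-type mouse in 2 of them and above in 1, so the sum does not stand for the whole list. After UIRI the sums overlapped, at 536 to 673 FPKM in the libraries labelled CD44 knockout and 562 to 763 FPKM in wild-type mice, and 1 of 6 was called lower, Cdkn1a, a cell cycle inhibitor (−0.45, limma adjusted p = 0.0395). The sums of other tubular and vascular lists also stood apart after UUO, and a sum follows its most abundant markers. Thick ascending limb and distal tubule markers summed to 536 to 944 FPKM in β-catenin knockout mice, against 352 to 518 FPKM in wild-type mice. Collecting duct markers summed to 259.8 to 594 FPKM in the knockouts, against 156 to 208 FPKM in wild-type mice, and endothelial markers to 127 to 144 FPKM, against 159.9 to 174 FPKM. The median log2 fold change after UUO was 0.45 for the thick ascending limb and distal tubule list, −0.07 for the collecting duct list and −0.37 for the endothelial list. In these 3 lists Slc12a1 and Aqp2 were called higher and Atp6v0d2 and Pecam1 lower after UUO, and limma called 0 after UIRI (1, 1 and 2 at an unadjusted p under 0.05), where each list's sums overlapped. Of the B cell, podocyte and erythrocyte lists limma called 0 markers in either comparison (1, 1 and 0 at an unadjusted p under 0.05 after UUO, and 2, 0 and 0 after UIRI). None of the markers of the 12 lists was at 0 in all 12 libraries. The part of these cell types in the values of the members was not tested.

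**Figure D4:**
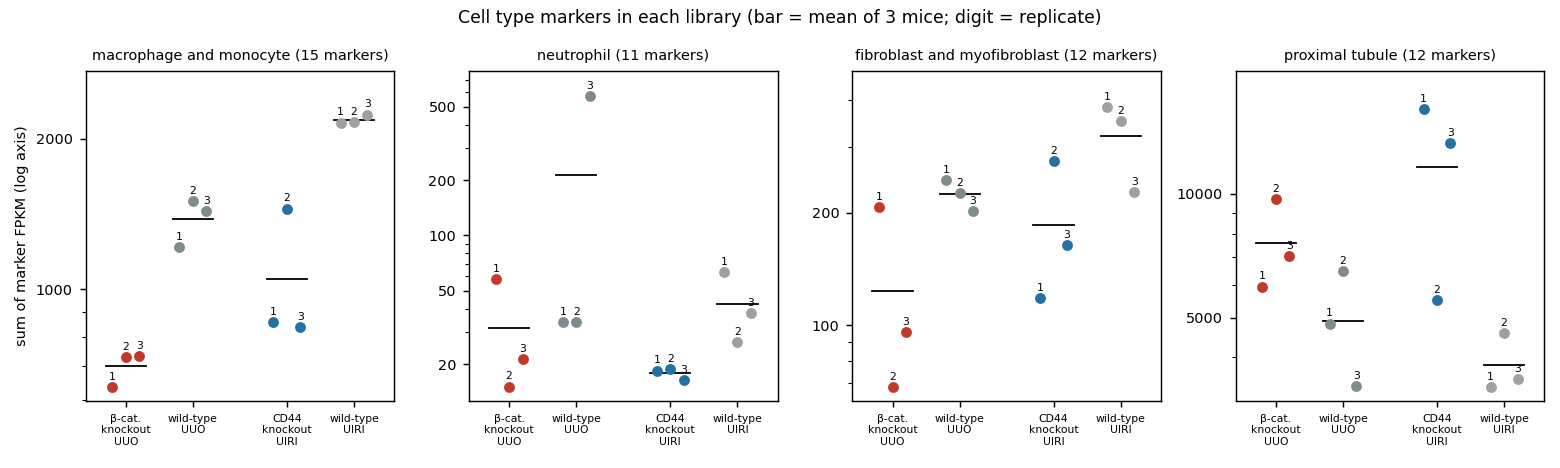
Summed FPKM of 4 marker lists in each library on log axes, with the mean of 3 mice as a bar and the replicate number at each point. The neutrophil sum of wild-type UUO replicate 3, 570.1 FPKM, stands above all other libraries, and the proximal tubule sum of CD44 knockout replicate 2, 5517 FPKM, lies below that of replicates 1 and 3.

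Related proteases, inhibitors and substrates were read from 9 lists. As with the markers, the calls in all 9 lists were not recomputed with libraries left out. Those after UIRI carry the same limit, as calls over all genes fell from 1001 to between 1 and 10 in most such fits. Of the other Mmp genes 9 of 16 were tested after UUO, and 1 was called lower: Mmp25, a membrane-anchored protease of leukocytes, at 0.230, 0.178 and 0.212 FPKM in β-catenin knockout mice, against 1.21, 1.13 and 1.67 FPKM in wild-type mice (log2 fold change −0.94, limma adjusted p = 0.0157). Mmp25 passed the filter of 0.5 FPKM only through the wild-type mice. Mmp13 had a log2 fold change of −0.87 after UUO (limma adjusted p = 0.0850), and Mmp23 one of −0.57 after UIRI (limma adjusted p = 0.0952). After UIRI limma called 0 of 7 tested, with 2 at an unadjusted p under 0.05. Timp4, the remaining Timp, was at 0.0640 FPKM or less in every library and was not tested. Of the other inhibitors 1 of 3 tested was called lower after UUO, Tfpi2, a Kunitz-type inhibitor (log2 fold change −0.81, limma adjusted p = 0.0183), and 0 of 3 after UIRI, with 0 at an unadjusted p under 0.05. The others were Reck, a membrane-anchored inhibitor, at −0.33 after UUO and −0.19 after UIRI, and Spock2, a proteoglycan, at 0.15 and −0.22.

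Adam proteases, which shed proteins from the cell surface, were called lower in 2 of 8 after UUO and 1 of 8 after UIRI. Adam17, the target of Timp3 that releases tumour necrosis factor, was at 7.31, 6.83 and 8.65 FPKM in β-catenin knockout mice, against 12.4, 12.1 and 13.8 FPKM in wild-type mice after UUO. No knockout mouse reached the lowest wild-type mouse (log2 fold change −0.69, limma adjusted p = 0.0183), and after UIRI the log2 fold change was −0.33 (limma adjusted p = 0.101). Adam19 fell in β-catenin knockout mice after UUO (−0.96, limma adjusted p = 0.0235), and Adam12 fell in the libraries labelled CD44 knockout after UIRI (−0.82, limma adjusted p = 0.0362). Of 12 Adamts proteases, secreted enzymes that cut proteoglycans and procollagens, 1 was lower in each comparison, the aggrecanase Adamts5 after UUO (−0.82, limma adjusted p = 0.0386) and Adamts10 after UIRI (−0.71, limma adjusted p = 0.0377). Adamts15 had a log2 fold change of −0.44 after UIRI (limma adjusted p = 0.0684).

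The plasminogen system supplies plasmin, which cuts matrix and activates Mmp proenzymes. Plau, the urokinase activator, was at 331, 329 and 356 FPKM in the libraries labelled CD44 knockout, against 199.9, 179.97 and 119 FPKM in wild-type mice after UIRI. It rose with its receptor Plaur, with no overlap between groups in either gene (log2 fold changes 1.05 and 0.61, limma adjusted p = 0.0362 and 0.0305). After UUO the list had 2 of 9 tested genes lower, Serpine2, an inhibitor of these activators (−1.53, limma adjusted p = 0.0267), and Anxa2, a surface protein that binds plasminogen (−0.52, adjusted p = 0.0445). Of 11 cathepsins and cystatins 3 were lower after UUO, Ctsc, Ctss and Ctsk (log2 fold changes −1.17, −1.34 and −0.91, limma adjusted p = 0.0112, 0.0283 and 0.0395), and 2 after UIRI, Ctss and Ctsk (−1.004 and −0.75, limma adjusted p = 0.0446 and 0.0454). Ctss is the cathepsin of antigen-presenting cells and Ctsk a collagenase. The meprins, proteases of the proximal tubule brush border, rose after UUO in the β-catenin knockout, Mep1b by 1.77 and Mep1a by 0.94 on the log2 scale (limma adjusted p = 0.00814 and 0.0129), as were proximal tubule markers, and Bmp1, the procollagen protease, was at −0.48 (limma adjusted p = 0.0831).

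Among 17 binding partners, receptors and activators 3 were lower after UUO and 1 was higher after UIRI. Thbs1, a matrix protein that binds Mmps, and Cd44 itself, a docking site of Mmp9 on the cell surface, were lower in β-catenin knockout mice (−1.33 and −0.68, limma adjusted p = 0.0181 for each), as was Lrp1, a receptor that clears Mmp and Timp complexes (−0.90, adjusted p = 0.0446). Furin, which activates the proenzyme of Mmp14, was at 18.1, 23.7 and 24.4 FPKM in the libraries labelled CD44 knockout, against 14.6, 11.1 and 12.2 FPKM in wild-type mice (log2 fold change 0.76, limma adjusted p = 0.0381). Among 14 matrix and membrane substrates tested 5 were lower after UUO and 2 after UIRI. Tnc, an injury-induced matrix glycoprotein, was at 2.32, 1.71 and 2.29 FPKM in β-catenin knockout mice, against 8.30, 9.95 and 12.9 FPKM in wild-type mice (−1.86, limma adjusted p = 0.00613). The small proteoglycans Dcn and Bgn were lower in both comparisons, with log2 fold changes of −0.98 after UUO and −1.10 after UIRI for Dcn (limma adjusted p = 0.0345 and 0.0265) and −1.48 and −0.70 for Bgn (limma adjusted p = 0.0188 and 0.0357). The other 2 lower after UUO were Col3a1, a fibrillar collagen, and Fn1, fibronectin (−1.40 and −1.44, limma adjusted p = 0.0278 and 0.0409). The substrates had a median log2 fold change of −0.87 after UUO and −0.42 after UIRI. Dcn and Col3a1 are also in the fibroblast list above.

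**Figure D5:**
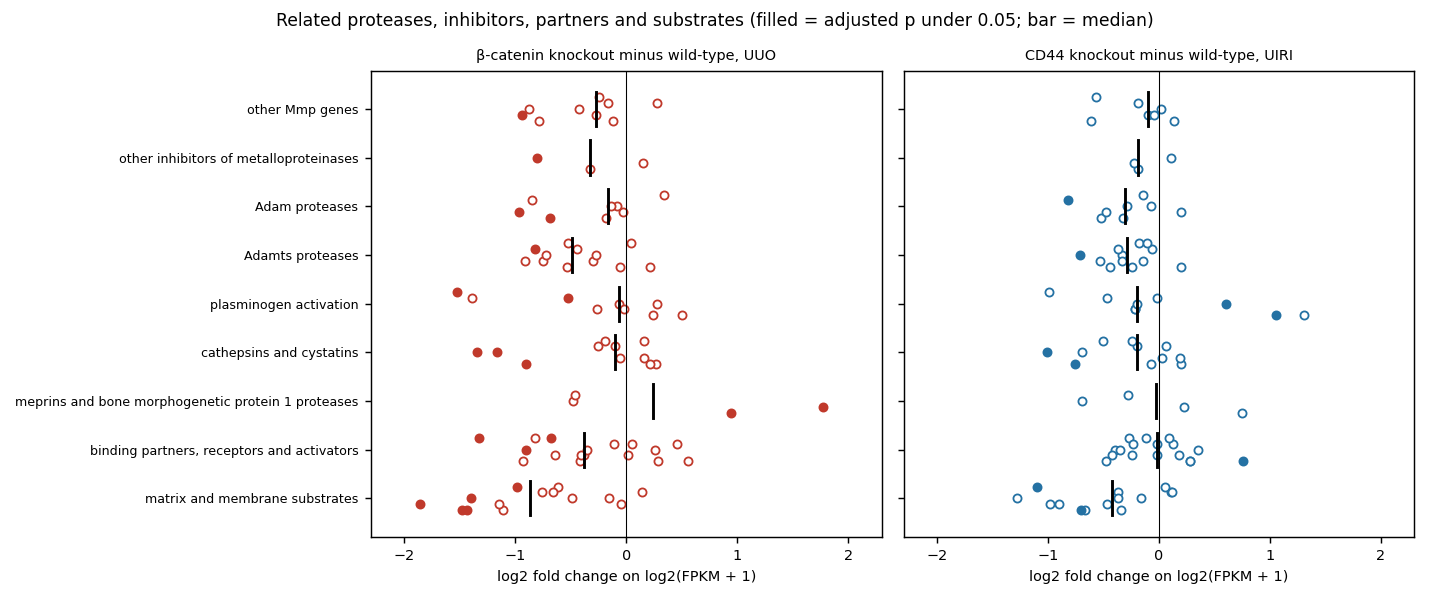
Log2 fold change of each tested gene of 9 related lists, knockout minus wild-type, after UUO (left panel) and after UIRI (right panel). Each point is a gene, filled where limma's adjusted p was under 0.05, and bars are list medians. The substrates have the lowest median after UUO, −0.87, and the meprin list holds the highest point after UUO, Mep1b at 1.77.

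Across the 12 libraries, with the mean of each table taken out, the genes most like each member among 12028 protein-coding genes were named as a description. The points share libraries and the difference between groups, so that genes that differ between knockout and wild-type mice resemble each other for that reason also. The correlations were not recomputed without the libraries that stood apart, among them wild-type UUO replicate 3 and CD44 knockout replicate 2. Timp1 was most like Hk3, a hexokinase of myeloid cells, then Tgfbi, a matrix protein, and Ehbp1l1 (Pearson r = 0.98, 0.97 and 0.97). Mmp3 was most like Milr1 and St6gal1, Mmp14 most like the collagen gene Col5a1, Lrp1 and Adamts2, and Mmp19 most like Gpr35, Slc15a3 and Car13. Mmp7 was most like Lcn2, a tubular injury protein (r = 0.94), then Pla2g7, and Mmp9 most like Il1r2, Adgre5 and Slpi. Mmp2 and Mmp12 shared Tead2 among the genes most like them, beside Hoxd10 and Mxra8 for Mmp2 and Zfp512 and C1qtnf7 for Mmp12. Timp2 was most like Man1c1, Fam20a and Hacd4, and Timp3 most like Osbpl3, with Dab2 also among the closest. Among the members themselves, Timp1 was most like Mmp3 (r = 0.94) and Mmp19 (r = 0.91), and Mmp2 most like Mmp12 (r = 0.94), while Mmp2 and Mmp9 had an r of 0.01. Timp3 had a negative r with each of the other 9.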

How the data were processed

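RNA of 12 mouse kidneys (total RNA, NEBNext Ultra library kit) was sequenced. Per the submitters' processing notes, the tools were HISAT2 2.0.5, featureCounts 1.5.0-p3 and DESeq2 1.20.0 on GRCm38 (mm10). The authors counted reads per gene and deposited FPKM, calculated from read count and gene length, in a table per knockout. Both tables name their wild-type columns alike, and each set was taken as the UUO or UIRI wild-type mice by the knockout beside it. FPKM times gene length gave whole reads for 100% of values (within 0.01 read), and the depth term followed median-of-ratios size factors within each table. Differences were tested with limma 3.58.1 in R 4.3.3 (eBayes with a trend) with a pseudocount of 1, a minimum mean of 0.5 FPKM and no covariate. The procedure was run on simulated reads with the same spread setting for every gene and no library that stood apart, unlike these data. Tables and figures used Python 3.11.15, NumPy 2.4.6, pandas 2.3.3 and Matplotlib 3.10.9. Coordinates are those of the tables, which match GENCODE M21 for all 10 genes, and promoter windows are from RefSeq. Proteins were not analysed here.

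The members, gene lists and tests were chosen with earlier results of these data known. Genes named are the members, Ctnnb1 and Cd44, up to 3 genes of each related list with the smallest p in either comparison, and the 3 protein-coding genes most like each member (Pearson r), of which some are not reported here. Mmp8, Timp4, Havcr1, Cdkn1a, Slc12a1, Aqp2, Atp6v0d2, Pecam1, Anxa2, Lrp1, Col3a1, Fn1, Syn3, Tmem198b and the Mmp neighbours on chromosome 9 were named after their values were seen. The fold changes of the members and the counts of genes and members called were recomputed under alternatives. These left out every library in turn, took the replicate number as a block, or used recovered reads by voom (limma) or limma with no trend. Others used FPKM rescaled to TPM, the filter dropped or set at 1 FPKM, or 0.1 or 0.01 as pseudocount. The marker lists, related lists, shares of the Timp sum and correlations were not recomputed in this way. Joint scaling of the tables was chosen after seeing the data.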

Additional observations from a re-analysis of the deposited data

How the results depend on the processing

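Of the fold changes of the 10 members under the alternatives, 127 after UUO and 116 after UIRI kept their direction and their side of the threshold, 6 after UUO and 16 after UIRI lost a call, 6 and 8 gained one, and Timp3 after UUO changed sign, to −0.082 with FPKM rescaled to TPM. With no filter the genes called fell to 473 after UUO and 63 after UIRI, in place of 1709 and 1001, and the members called to 0 in both; more genes were tested, and errors also moved (Timp1 after UUO, SE 0.41 in place of 0.39). On recovered reads voom called 2268 genes and 5 members after UUO, and 1711 genes and 4 members after UIRI. After UIRI 1 member, Timp1, was called lower with FPKM rescaled to TPM, where 473 of 16113 genes were called lower and 220 higher. In limma without a trend Timp1 was again the 1 member called, where 320 genes were lower and 467 higher. Timp3 was not called in either setting. With single libraries left out, the genes called ranged between 228 and 2449 after UUO and between 1 and 2180 after UIRI, and the members called between 0 and 5 after UUO and between 0 and 8 after UIRI. The cause of these shifts was not tested. In the difference between the knockout effects 0 members were called under every alternative.

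Whether the replicate numbers pair the mice was not settled after UUO, and after UIRI the numbers gave no sign of it. Same-numbered mice had correlations of their deviations of 0.080, 0.198 and 0.043 after UUO, against −0.157 to 0.082 for mice of different numbers. After UIRI same-numbered mice had −0.143, −0.025 and −0.029, against −0.109 to 0.150 for mice of different numbers. Not every mouse was most like the one of its own number. With the replicate number as a block 1667 genes and 4 members were called after UUO, and 0 genes and 0 members after UIRI, where limma gave 2117 genes higher and 1575 lower at an unadjusted p under 0.05.

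With 3 mice per group and libraries that stood apart in both comparisons, the members just over the threshold cannot be called unchanged. Members at low FPKM (Mmp3, Mmp9, Mmp12 and Mmp19) have fold changes shrunk by the pseudocount. They rest on few reads in the β-catenin knockout mice, at 12 to 77 reads, but Mmp12 had 284 to 1211 reads in the UIRI libraries.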
